A study of Mus musculus with 3 samples.

Results

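Kainate receptor subunit genes (Grik1, Grik2, Grik3, Grik4 and Grik5) and the delta receptor gene Grid1 were examined in adult mouse dentate gyrus. These 6 genes were taken by gene symbol from the deposited table of FPKM values, which holds 33101 gene names with a value. Each of the 6 symbols had 1 row in the table. FPKM is a count of sequenced fragments scaled by transcript length and by the mapped fragments of the library. Levels of genes of different length can then be set side by side, provided that the length used suits the transcripts present.

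The tissue came from C57BL/6 male mice aged 8 to 10 weeks, and the dentate gyri of both sides were dissected from each animal. Poly(A) RNA was sequenced in 3 libraries, given as biological replicates, which form 1 wild-type group without a treatment or a second genotype. The table holds 1 value per gene for the whole group. No replicate spread can therefore be attached to any value, the depth is unknown, and neighbours in any order of levels below cannot be told apart or shown to differ. Of the 5 granule cell markers examined, Prox1 stood at 44.8 FPKM, Calb1 at 77.4 FPKM, Dsp at 43.3 FPKM, Tdo2 at 23.5 FPKM and Dock10 at 0.137 FPKM.

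Ionotropic glutamate receptors are cation channels made of 4 subunits. In the kainate family, GluK1, GluK2 and GluK3 (from Grik1, Grik2 and Grik3) bind kainate with low affinity and can form channels on their own. GluK4 and GluK5 (from Grik4 and Grik5) bind it with high affinity and work as partners of the first class. Granule cells of the dentate gyrus send mossy fibre axons to CA3, a pathway long known for its kainate receptors, which lie on both sides of the synapse. GluD1, the product of Grid1, resembles these subunits but is known mainly as a synaptic adhesion partner that binds cerebellins, which in turn bind presynaptic neurexins.

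The pore loop lines the channel, and in Grik1 and Grik2 transcripts it carries the glutamine codon that adenosine deaminases recode to arginine (the Q/R site). The stretch of 45 bases around this codon is given for each member, because it shows how alike the genes are and which codon the editing enzymes described later act on. Sequences are of the coding strand from GENCODE M21 transcripts, 5′ to 3′. The capitals mark the first glutamine codon of the loop.
Grik1: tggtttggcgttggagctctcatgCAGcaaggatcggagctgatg
Grik2: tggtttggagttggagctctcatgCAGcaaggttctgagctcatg
Grik3: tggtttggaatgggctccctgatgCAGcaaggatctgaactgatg
Grik4: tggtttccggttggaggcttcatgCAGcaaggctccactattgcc
Grik5: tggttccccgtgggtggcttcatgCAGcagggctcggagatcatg
Grid1: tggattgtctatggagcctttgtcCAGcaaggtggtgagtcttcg

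All 6 genes have CAG at this codon. Grik1 and Grik2 had 41 of 45 bases in common (91.1%), and each of them shared 36 bases with Grik3. Grik4 and Grik5 shared 32 bases (71.1%). Across the affinity classes the shared bases ranged from 25 for Grik3 and Grik4 (55.6%) to 33 for Grik1 and Grik5 (73.3%), more than Grik4 and Grik5 shared. Grid1 shared between 23 bases with Grik5 and 28 with Grik2. The stretch was present in 7 of 7 coding Grik1 transcripts of GENCODE M21 and in 6 of 8 coding Grik2 transcripts. On GRCm38 the capitalised codon lies in exon 12 of 17 of Grik1 (chr16:87940542-87940544, minus strand) and in exon 13 of 17 of Grik2 (chr10:49244329-49244331, minus strand). In Grik3 it lies in exon 12 of 16 (chr4:125691207-125691209, plus strand), in Grik4 in exon 16 of 21 (chr9:42547623-42547625, minus strand) and in Grik5 in exon 15 of 20 (chr7:25022497-25022499, minus strand). In Grid1 it lies in exon 11 of 16 (chr14:35450390-35450392, plus strand). An FPKM value counts edited and unedited copies together, so the edited share was not analysed here.

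Grik5, a high-affinity subunit gene, stood apart from the rest of the family. It was at 59.4 FPKM and Grik4, the other high-affinity subunit gene, at 16.9 FPKM, a ratio of Grik5 to Grik4 of 3.52. Grik5 alone made up 56.9% of the summed level of the 5 kainate genes, which was 104.4 FPKM, and Grik4 made up 16.2%. The 2 high-affinity genes together reached 76.3 FPKM against 28.1 FPKM for the 3 low-affinity genes, a ratio of 2.71. This ratio rests on Grik5, since Grik4 alone, at 16.9 FPKM, lay below that sum and exceeded Grik2 only 1.14-fold. These shares describe transcripts and say nothing of how subunits are combined in receptors.

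Among the low-affinity genes, Grik2 was at 14.8 FPKM and Grik3 at 11.6 FPKM, a ratio of Grik2 to Grik3 of 1.28. GluK2 is the principal low-affinity subunit of hippocampal kainate receptors, and GluK3 forms channels of low sensitivity to glutamate. Grik1, whose product is known mostly from interneurons in hippocampus, was lowest of the 6 at 1.66 FPKM. Grik3 exceeded it 7.01-fold, Grik2 8.96-fold and Grik5 35.8-fold. Grik1 thus made up 1.59% of the kainate sum, Grik2 14.2% and Grik3 11.1%.

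Grid1 was at 13.9 FPKM, between Grik2 and Grik3. The ratio of Grik2 to Grid1 was 1.07 and that of Grid1 to Grik3 was 1.20. The order of levels was therefore Grik5, Grik4, Grik2, Grid1, Grik3 and Grik1. Its 4 middle genes lay within 1.45-fold of each other, while the steps from Grik5 to Grik4 (3.52-fold) and from Grik3 to Grik1 (7.01-fold) were the widest between neighbours.

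**Figure D1:**
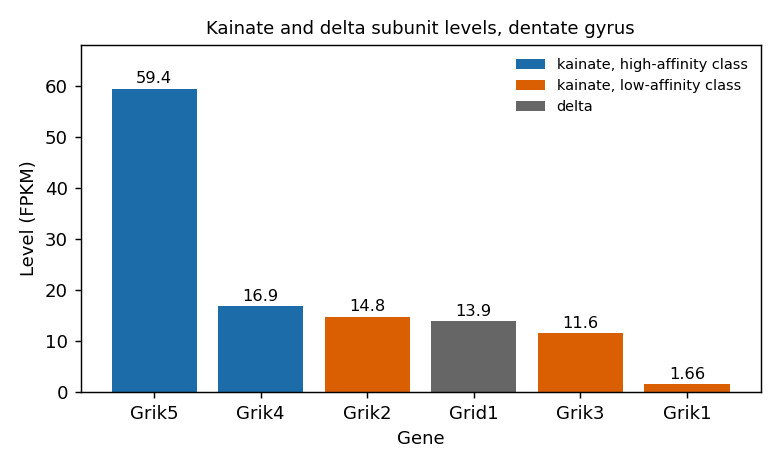
Level of each gene in dentate gyrus, in FPKM, as 1 deposited value per gene with no replicate error. Bars are coloured by receptor class; Grik5 stands at 59.4 FPKM, 4 genes lie from 11.6 to 16.9 FPKM and Grik1 is at 1.66 FPKM.

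All 6 genes reached 1 FPKM, as did 39.6% of all names and 56.4% of 20108 protein-coding names. At 10 FPKM, 5 of the 6 remained, Grik1 being the exception, beside 21.1% of all names and 30.8% of protein-coding names. The median of the 6 was 14.4 FPKM, against 2.46 FPKM over protein-coding names and 11.5 FPKM over those at 1 FPKM or more. Grik5 lay above 94.7% of protein-coding names, Grik4 above 78.7%, Grik2 above 76.5%, Grid1 above 75.3%, Grik3 above 71.9% and Grik1 above 46.9%. Among protein-coding names at 1 FPKM or more, Grik1 lay above 5.87% and Grik3 above 50.2%.

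**Figure D2:**
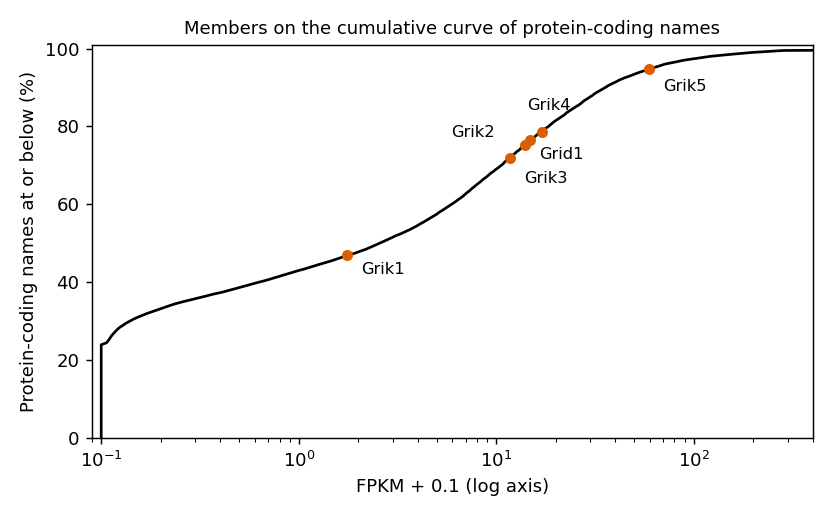
Cumulative percentage of protein-coding names (vertical axis) by level (horizontal axis, FPKM + 0.1, log scale), with the 6 genes as points. Grik5 is near the top of the curve at 94.7%, 4 genes cluster from 71.9% to 78.7% and Grik1 is at 46.9%; the curve stops short of the most abundant names.

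The genes were long. In the mm9 coordinates of the table, Grid1 spanned 763.6 kb (chr14:35633011-36396565), Grik2 689.3 kb (chr10:48819266-49508572) and Grik4 426.4 kb (chr9:42326218-42752576). Grik1 spanned 343.3 kb (chr16:87946659-88289947) and Grik3 223.5 kb (chr4:125167944-125391417). These 5 spans exceeded at least 96.5% of the spans of protein-coding names. Grik5, the gene with the highest level of the 6, was the most compact at 62.5 kb (chr7:25794872-25857388), a span above 82.2% of protein-coding names.

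The listed transcript was an annotated coding form in GENCODE M21 for 4 genes, with 8973 nt for Grik3, 5887 nt for Grik4, 5720 nt for Grid1 and 3763 nt for Grik5. Those listed for Grik1 and Grik2 were not found in that release. The product of FPKM and transcript length gives a rough relative number of fragments behind a value, if these lengths were the ones used. It was 223.5 for Grik5, 104.2 for Grik3, 99.3 for Grik4 and 79.4 for Grid1. By this measure the value of Grik5 rested on 2.14 times as many fragments as that of Grik3, whereas their levels differed 5.11-fold.

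Other entries of the table overlapped 4 of the 6 genes, 5 entries in all, each on the same strand as the gene it overlapped. The ferritin light chain entry Ftl2 lies within the span of Grik3 and was at 42.3 FPKM. A730099G02Rik, within Grik2, was at 0.0107 FPKM, and 9530085L02Rik within Grik4, Mir692-2a within Grik3 and Mir346 within Grid1 were listed at 0. Whether reads of Ftl2 add to the value of Grik3 was not tested. Of all runs of 50 bases in the transcripts examined, none in Grik1 or Grik5 occurred in a transcript of another gene, and 0.342% in Grik2, 0.448% in Grik3, 0.343% in Grik4 and 0.564% in Grid1 did.

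By the listed values, the kainate genes lay between the other ionotropic glutamate receptor families. The 4 AMPA subunit genes, which carry most fast excitatory transmission, summed to 367.4 FPKM, 3.52 times the kainate sum. The 7 NMDA subunit genes, whose receptors need glutamate together with glycine or D-serine, summed to 46.3 FPKM, and the kainate sum was 2.26 times that. Grin1, the obligatory NMDA subunit gene, was listed at 0 in the table and adds nothing to the NMDA sum. The kainate genes made up 20.1% of the 3 families together. Whether 0 is the true level of Grin1 was not tested. The NMDA sum may therefore be too low, and the place of kainate above NMDA, its ratio and this share are uncertain. Grik5 exceeded Gria3 (25.7 FPKM) 2.31-fold and Grin2a (16.7 FPKM), the highest of the NMDA genes, 3.56-fold. Gria1, at 248.9 FPKM, exceeded Grik5 4.19-fold. Gria4 was at 5.05 FPKM, between Grik1 and Grik3. Of the other NMDA genes, Grin2c was at 11.9, Grin2b at 8.92, Grin3a at 6.15, Grin2d at 2.62 and Grin3b at 0.0344 FPKM, so that Grin2c alone of these exceeded Grik3. Gria3 has a retained-intron form as its listed transcript, and those of Gria2 (87.8 FPKM, 4026 nt) and Grin2a (5023 nt) are shorter than the longest coding forms, of 10371 and 14634 nt. That of Grin2b has 7484 nt, against 24060 nt for its longest coding form.

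Auxiliary subunits slow the closing of kainate receptor channels and adjust their affinity. Neto1 was at 13.8 FPKM and Neto2 at 3.14 FPKM, a ratio of Neto1 to Neto2 of 4.38. The kainate sum was 6.17 times the sum of both, and Neto1 lay within the range of Grik2, Grik3 and Grid1.

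Genes of the adenosine deaminase family, which holds the enzymes that act on the capitalised codon of Grik1 and Grik2 transcripts, were unequal in level. Adar, which encodes ADAR1, was at 31.4 FPKM. Adarb1 encodes ADAR2, the enzyme best known for editing glutamate receptor transcripts, and was at 0.136 FPKM. Adarb2, whose product has no known editing activity, was at 7.23 FPKM. The listed Adarb1 transcript is a coding form of 6584 nt, and the table alone does not show whether 0.136 FPKM was well estimated.

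Secreted and membrane proteins that tie these receptors to the presynaptic side spanned a wide range. C1ql2 and C1ql3, released by mossy fibres and known to gather kainate receptors of CA3 through GluK2 and GluK4, were at 111.4 and 101.9 FPKM, above every kainate gene. Their relative C1ql1 was at 4.65 FPKM. The neurexin gene Nrxn2 was at 93.4 FPKM, and Nrxn3, whose protein takes part in the C1ql complexes, was at 1.13 FPKM with a retained-intron form as its listed transcript. The cerebellin genes, which encode ligands of delta receptors, were low, with Cbln4 at 0.713 FPKM, Cbln2 at 0.212 FPKM and Cbln1 at 0.0787 FPKM, below Grid1 at 13.9 FPKM. Of the 8 genes described, 5 reached 1 FPKM and 3 reached 10 FPKM, with a median of 2.89 FPKM. These counts are near the shares of protein-coding names, 56.4% at 1 FPKM and 30.8% at 10 FPKM.

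Of 18 genes for scaffold, trafficking and turnover proteins that bind or modify kainate subunits, 16 reached 1 FPKM and 11 reached 10 FPKM. Of protein-coding names, 56.4% and 30.8% did so. The median of the 18 was 15.1 FPKM. Snap25, a release machinery gene whose protein also binds GluK5, led at 418.4 FPKM. Dlg4, which encodes the postsynaptic scaffold PSD-95, followed at 314.8 FPKM, 5.30 times Grik5. The listed Dlg4 transcript has 3414 nt, against 6326 nt for its longest coding form. Ctnnb1, the beta-catenin gene, was at 202.4 FPKM with a short listed transcript of 364 nt. Sdcbp, which encodes the PDZ protein syntenin, was lowest at 0.235 FPKM, and the other gene under 1 FPKM was Grip2 at 0.749 FPKM.

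Several genes of this list act on named subunits and were picked out after their values were seen. Klhl17, which encodes the adaptor actinfilin for degradation of GluK2, was at 8.55 FPKM and its ligase partner Cul3 at 34.1 FPKM. Pick1, a PDZ protein that binds kainate subunits, was at 19.0 FPKM, and Kif17, the motor gene linked to transport of GluK5, at 7.14 FPKM.

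Kinase genes that can phosphorylate kainate subunits were abundant, with 6 of 6 at 10 FPKM or more, beside 30.8% of protein-coding names. Their median was 106.1 FPKM. Camk2a and Camk2b, which encode CaMKII subunits, were at 1204.8 and 635.3 FPKM. The catalytic subunit genes of protein kinase A, Prkacb and Prkaca, were at 111.7 and 100.4 FPKM. The protein kinase C genes Prkcb and Prkca were at 43.7 and 22.2 FPKM, the listed Prkcb transcript being a form subject to nonsense-mediated decay. All of these kinases act on many other proteins.

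**Figure D3:**
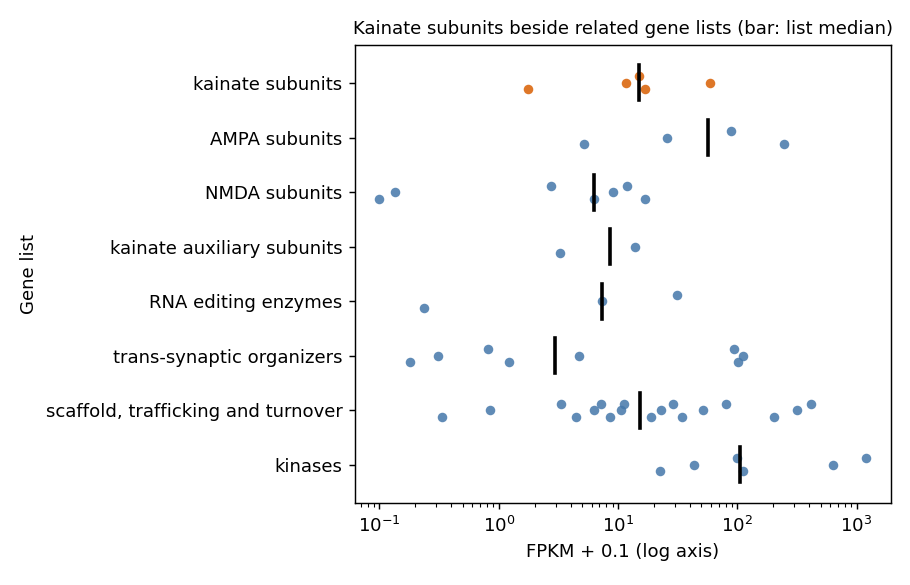
Levels of the genes of each list (horizontal axis, FPKM + 0.1, log scale), 1 point per gene, with a bar at the list median. The 5 kainate genes (orange) have a median of 14.8 FPKM, between the AMPA list at 56.8 FPKM and the NMDA list at 6.15 FPKM. The NMDA list includes Grin1, listed at 0.

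The dissected tissue held RNA of several cell types, and the values do not show which of them carried each subunit. In such tissue, fewer cells of a type and less RNA per cell cannot be told apart. For GABAergic interneurons, in which Grik1 is best known, 7 of 8 markers reached 1 FPKM, from Sst at 109.0 FPKM down to Lhx6 at 0.444 FPKM, with a median of 11.1 FPKM. CA3 pyramidal neurons are known for strong Grik4 expression, and 4 of 4 of their markers reached 1 FPKM, with Nptx1 at 150.7 FPKM, Cpne4 at 39.5 FPKM, Coch at 2.53 FPKM and Iyd at 2.11 FPKM. For comparison, 56.4% of protein-coding names reached 1 FPKM. Hilar mossy cell markers ranged from 0.173 FPKM (Drd2) to 53.0 FPKM (Calb2), and CA1 markers from 0 (Pou3f1) to 8.81 FPKM (Wfs1). Glial markers were present as well, with medians of 94.4 FPKM for 5 astrocyte genes, 75.4 FPKM for 4 oligodendrocyte genes, 9.23 FPKM for 3 oligodendrocyte precursor genes and 26.7 FPKM for 4 microglial genes. Listed transcripts were short for the astrocyte markers Gfap (356 nt) and Aldh1l1 (400 nt) and the interneuron marker Gad1 (398 nt). Their longest coding forms have 2648, 4175 and 3355 nt. The median of 4 endothelial genes was 1.78 FPKM. The part of these cells in the subunit levels was not tested.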

How the data were processed

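Reads were aligned and quantified with TopHat and Cufflinks (mm9, NCBIM37), as named in the submitters' processing notes. Tool versions and whether libraries were pooled or averaged: not given in the sources used here. Values are FPKM as deposited by the authors, in 1 column for 3 libraries. Of 37681 rows, 36469 held a value; 1212 did not and were left out. Rows sharing a symbol (311 names) were summed. Whether values are per gene or per listed transcript is not stated, and a gene at 0 is said to be listed at 0. Start positions were made 1-based.

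Gene types, transcript types and lengths came from GENCODE M21 (GRCm38) by Ensembl identifier, found for 86.6% of rows. The pore loop was located as the only glutamine-glutamine-glycine run in the longest open frame of the listed transcript, or, for Grik1 and Grik2, of the longest coding transcript. Promoter windows were from RefSeq (GRCm38.p6).

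The members and lists were chosen with earlier results of these data known; some genes of the lists are not reported here and were left out of their counts. Text names all 6 members, every gene of lists of up to 9 genes, and otherwise the 3 highest and the lowest. Of the scaffold, trafficking and turnover list, Grip2, Klhl17, Cul3, Pick1 and Kif17 are named outside this rule. Of the cell type markers, examples are named. With 1 value per gene no test was run, no p-value is given, and no genes of like pattern could be named. Rank and summing steps were tested on simulated data. Python 3.11.15, pandas 2.3.3, numpy 2.4.6, biopython 1.88 and matplotlib 3.10.9 were used.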

Additional observations from a re-analysis of the deposited data

How the results depend on the processing

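With no replicate spread, an alternative value was taken as unchanged within 10% of the reported one, and 39 of 64 were counted so. The 39 include values that could not change, so their number does not measure how firm the results are. Leaving out genes listed at 0 cannot alter a ratio of family sums. Leaving out genes at 0 or below 0.1 FPKM could change the medians of the NMDA and organizer lists only. The number of members past the minimum, 6 at 1 FPKM, was 6 at 0.5 FPKM and 5 at 5 or 10 FPKM. These counts of members were not part of the 64 or the 39. Keeping the highest row for a shared symbol cannot change the levels, since each of the 6 genes had 1 row. Pseudocounts of 0.1 and 1 cannot change the order of the 6 genes; the log2 ratio of Grik3 to Grik1 fell from 2.81 to 2.25 with a pseudocount of 1. Percentiles among all names (63.2 for Grik1, 83.8 for Grik2, 80.8 for Grik3, 85.3 for Grik4, 96.0 for Grik5, 83.0 for Grid1) depend on the background. Among names at 0.1 FPKM or more they were 25.6 for Grik1, 67.2 for Grik2, 61.1 for Grik3, 70.3 for Grik4 and 65.7 for Grid1, and among names at 1 FPKM or more 7.03, 59.0, 51.4, 62.8 and 57.1. Among protein-coding names Grik1 was at 46.9 and Grik3 at 71.9.

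With family means in place of sums, AMPA over kainate was 4.40 and kainate over NMDA 3.16. With means of log2(FPKM + 0.1), brought back to FPKM, the list values were 12.4 (kainate), 6.60 (auxiliary), 3.69 (editing), 4.70 (organizers), 142.5 (kinases), 41.2 (AMPA) and 2.27 (NMDA). The organizer median was 4.65 with members at 0.1 FPKM or more, and the NMDA median 8.92, or 7.54 without Grin1, listed at 0. Leaving out libraries was not run, since values per library were not analysed here. Weighting by transcript length was not run, since 3 of 5 kainate genes had a length. Depth is unknown, so no limit of detection can be given for Grik1 or for genes near 0.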

Other observations

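Promoter windows of 300 bases (RefSeq, GRCm38.p6) were found for 4 of the 6 genes, namely Grik2, Grik3, Grik4 and Grik5. The study concerns DNA methylation, so their CpG sites were counted. Grik3 held 50 CpG sites, a number reached by 0.855% of 32851 windows, and Grik4 held 42, reached by 3.03%. Grik2 held 26, reached by 16.9%, and Grik5 held 10, reached by 43.5%, against a median of 7 over all windows. Grik5, the gene with the highest level of the 4, had the fewest CpG sites, although its window was 72.0% G and C, beside 82.0% for Grik3, 70.0% for Grik4 and 64.7% for Grik2. Grik4, the next in level, held more sites than Grik2, and a relation of level to CpG number was not tested. These are counts in the reference sequence of 4 genes. Methylation at these sites was not analysed here.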
